A study of Mus musculus with 13 samples.

Results

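The genes of the integrin and laminin chains were followed through the open chromatin of the mouse kidney. The set holds 36 of the 22028 protein-coding genes of the annotation, with 26 integrin chains and 10 laminin chains. They were chosen by gene family and not by any value, though with earlier results of these data known. Nuclei of whole kidneys of wild-type mice were profiled by single nuclei ATAC sequencing (snATAC-seq) at postnatal day 0 (P0, 2 samples), day 21 (P21, 1 sample) and day 56 (P56, 2 samples), and P21 and P56 together form the adult group. The label P0 covers kidneys of mice that the protocol gives as 1 day old. No treatment and no engineered allele is given for any group. Whether a sample was 1 animal or several is not given in the sources used here, so the p-values measure the spread between these samples. The nuclei were grouped in the 13 deposited cell clusters, and the cluster names are those of the deposited annotation.

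Integrins are receptors of an alpha and a beta chain that anchor cells to the extracellular matrix and signal in both directions across the membrane. Laminins are trimers of an alpha, a beta and a gamma chain and form, with collagen IV, the sheet of the basement membrane on which every tubule and glomerulus rests. During nephron formation the laminin chains of the glomerular basement membrane are exchanged, from embryonic to mature ones, and the receptors differ between epithelium, endothelium, stroma and leukocytes.

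An open call is a peak found open in a nucleus. Gene activity counts the open calls in all peaks that touch the gene body or the 2 kb upstream of it, and is given per 1000000 open calls of that cluster and sample (calls per 1000000, CPM). The 36 genes carry 817 of the 300755 peaks, from 2 to 109 peaks a gene with a median of 16.5, and 645 of these peaks lie in introns, 158 over exons and 14 upstream. Only 33 peaks lie over an annotated start site, and Itgax, Itgad, Itgb2, Itgae, Itga2b and Itgb7 have none there. In 7 genes some peaks also fall in the window of another protein-coding gene, among them 23 of the 55 peaks of Lamb3, 23 of the 40 of Itga1 and 7 of the 7 of Itgam, so those levels cannot be assigned to 1 gene. Shares of nuclei with an open peak depend on the depth of the nuclei, which differed between samples, and are given beside levels in CPM. Levels are compared within a gene unless a value per kb of peak is given. Values per sample stand in the order P0 sample 1, P0 sample 2, P21, P56 sample 1 and P56 sample 2, and means are given ± SD with n = 2 at P0 and n = 3 in the adult.

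Of the 13 clusters, 7 are tubular: PCT and PST from the convoluted and straight proximal tubule, LOH from Henle's loop, DCT and CNT from the distal and connecting tubule, and PC and IC, the principal and intercalated cells of the collecting duct. The others are nephron progenitors (NP), podocytes (Podo), endothelium (Endo), Immune, Stroma1 and Stroma2. They hold 27652 nuclei, with 16446957 to 42370435 open calls a sample and 39 to 2459 nuclei a cluster and sample. Across the libraries 477 barcodes occur more than 1 time, in 959 nuclei. Of 11 marker lists with a cluster of their name, 10 led there at P0 and 11 in the adult, and the exception was Trpv5, the calcium channel of the connecting tubule, at 39.4 in DCT and 36.4 in CNT at P0. In NP the summed level of Uncx, Cited1 and Six2 was 133 CPM in both P0 samples and 13 to 39.6 in the adult. In podocytes this progenitor list was at 70.6 to 71.4 at P0 and 16.5 to 31.1 in the adult. In the same NP nuclei the loop of Henle list (Slc12a1, Umod) was at 26.9 to 33.9 at P0 and 94.4 to 99.4 in the adult, and the distal convoluted list (Slc12a3, Pvalb) at 28.7 to 29.7 and 64.9 to 138. In adult Stroma1 the stromal list (Col3a1, Pdgfrb, Pdgfra) was at 119 to 175 against 246 to 255 at P0, and the proximal tubule list (Akr1c21, Slc34a1, Slc5a2, Kap, Lrp2) at 97.5 to 367 against 51.3 to 68.3 at P0. The smooth muscle list (Myh11, Acta2) there was at 95 to 202 against 70.2 to 82.9 at P0, and in Stroma2 at 82 to 107 against 116. The urothelial list (Upk1b, Upk3a) had at most 28.4 in any cluster and sample. The distal convoluted list in CNT was at 42.1 to 55.4 at P0 and 236 to 383 in the adult. In podocytes the proximal tubule list was at 64.3 to 76 at P0 and 118 to 227 in the adult. In LOH the progenitor list was at 67.5 to 75.3 at P0 and 11.9 to 21.5 in the adult. The stromal list there was at 75.8 to 78.3 at P0 and 30.7 to 33.8 in the adult. In PST the stromal list was at 82.5 to 89.6 and 42.7 to 50.4. In DCT it was at 42.1 to 49.1 and 18.9 to 34, and in PC at 61.5 to 66.8 and 27.6 to 38.5. Stage differences in NP, Stroma1, CNT, podocytes, LOH, PST, DCT and PC are read beside these values, and their part in the results was not tested.

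Summed over the 13 clusters the activity of these genes was more often called higher at P0 than in the adult. Of 398 tested pairs of a gene and a cluster, 98 (24.6%) were higher at P0 and 47 (11.8%) higher in the adult by the quasi-likelihood test of edgeR at an adjusted p under 0.05, where 13.7% and 10.5% of all gene and cluster pairs were. The order differed between clusters. In LOH 16 of 35 genes were called towards P0 and 6 towards the adult, against 28.3% and 22.7% of all genes. CNT had 13 and 4 of 30 against 15.8% and 9.69%, and PC 12 and 4 of 35 against 17.8% and 12.1%. DCT had 8 and 0 of 27 against 5.0% and 1.59%. Stroma2 had the opposite order, with 5 and 9 of 34 against 19.7% and 15.6%. PCT had 6 and 6 of 36 against 14.9% and 12%. None was called in Immune, where 3 of all 8490 genes tested were called and 872 had an unadjusted p under 0.05. The median log2 fold change, adult minus P0, was -0.13 over the pairs of this set and 0.01 over all genes. The P0 and adult samples did not overlap in 58.5% of the pairs, against 50.1% over all genes. The pairs of a gene share nuclei and the genes share clusters, so these shares are descriptions. A further 70 pairs had too few calls to be tested, and since a pair could enter through the stage where it was high, the tested pairs are not all pairs. Of the 36 genes, 16 were called only in the direction of P0, 12 only in that of the adult, 7 in both and Itgax in neither. The same count was not made over all genes. A gene tested in more clusters had more occasions to be called, so these counts are descriptions. Of the 145 calls, 47 were made again with each of the 5 samples left out in turn, and without P0 sample 1 or 2 58 and 63 of them were, where 1 sample stood for P0. Where the fold change of a called pair of this set is given below, the samples without which the call was lost stand beside it, with the log2 fold change without that sample. Calls named below by their cluster without a value were each lost without at least 1 sample. Leaving out the NP and Stroma1 clusters left 80 calls towards P0 and 38 towards the adult. In NP 12 of 29 genes were called towards P0 and 5 towards the adult, where 20.8% and 18.3% of all genes were. In Stroma1 they were 6 and 4 of 31, against 15.3% and 13.1%. The share over all genes without these clusters was not computed, so the 80 and 38 are counts only.

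**Figure D1:**
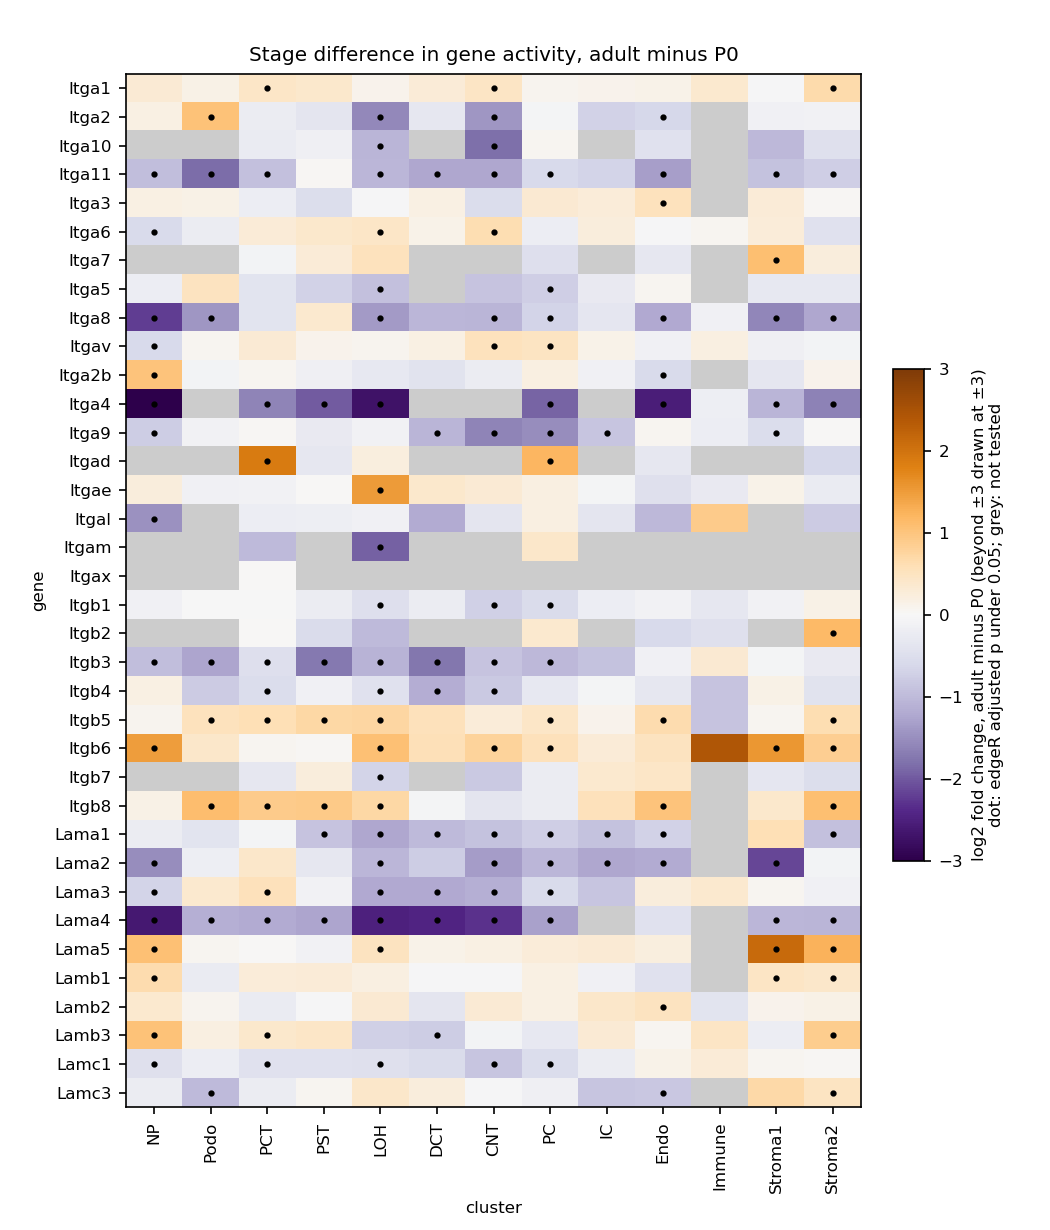
Each square is the log2 fold change of gene activity, adult minus P0, of 1 gene (rows, in the order of their roles) in 1 cluster (columns), with a dot where edgeR called it and grey where it was not tested. Lama4, Itga4, Itga8, Itga11 and Itgb3 are purple (higher at P0) in most clusters, Itgb5, Itgb6 and Itgb8 orange (higher in the adult), and Itga2 has both colours.

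Between clusters, 145 of the pairs were called higher in the cluster than in the mean of the 12 others at P0 and 123 in the adult, and 21.1% and 17.8% of the pairs of all genes were. The clusters were made from the same nuclei, so these calls rank genes and are no test, and the differences between clusters below are given without p. Itga4 ran from 7.55 in DCT to 136 in Immune at P0. In each stage 7 genes peaked in Immune. At P0, 6 peaked in Endo, 4 in Podo, 4 in PCT and 4 in PST, while in the adult 6 peaked in Stroma2 and 3 each in Endo, Podo, PCT, PST and NP. Beside peaks over start sites, the single peaks named below were picked as those with the largest log2 fold change of the gene's leading cluster at P0 or in the adult against the other clusters, so the choice favours one stage and their values by stage are given as a description, without a test. With the share of nuclei having an open peak of the gene, each nucleus thinned to 1000 open peaks, the leading cluster was the same in 25 of the 36 genes at P0 and 29 in the adult.

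**Figure D2:**
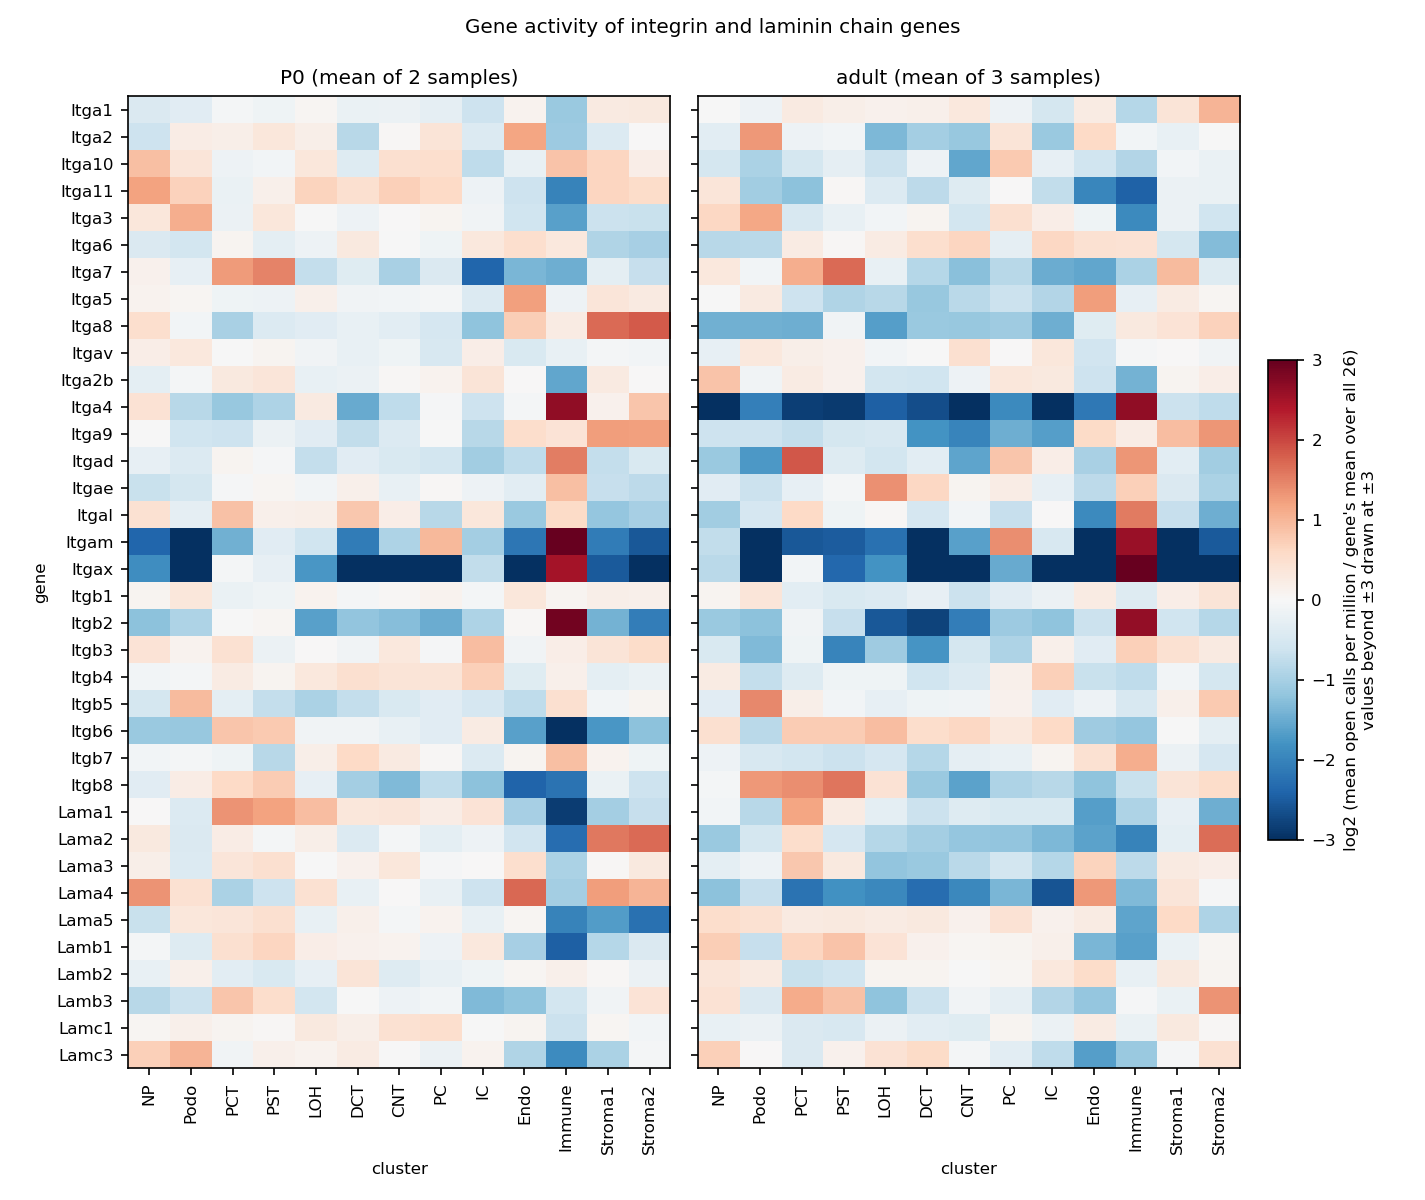
Each square is the mean gene activity of 1 gene (rows) in 1 cluster (columns) at P0 (left) or in the adult (right), as log2 of its ratio to the gene's mean over all 26 columns. Itga4, Itgam, Itgax and Itgb2 stand out in Immune at both stages, Itga8, Itga9 and Lama2 in stroma, and Lama4 is red in NP, Endo, Stroma1 and Stroma2 at P0 and, of these, clearly so in Endo in the adult.

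The collagen receptor chains Itga1, Itga2, Itga10 and Itga11 all pair with Itgb1, and they differed in where and when they were open. Itga1 was highest in stroma, with 320.2 ± 14.6 in adult Stroma2 and 204 ± 21.1 in Stroma1, which did not overlap, while at P0 Stroma2 (192 ± 19.3) and Stroma1 (190.1 ± 7.03) overlapped. In Stroma2 its values were 206 and 179 at P0 and 305, 321 and 334 in the adult samples. Itga1 rose there (log2 fold change 0.66 ± 0.13 (SE), edgeR adjusted p = 0.0019, a call lost without P0 sample 2 (0.54)), and the adult samples lay above both P0 samples. Of its 40 peaks, 23 also fall in the window of another gene, so this level and its rise cannot be assigned to Itga1 alone. The peak over its start, also shared, was highest in PCT at P0, at 51.2 ± 2.42, and in CNT in the adult, at 66.2 ± 1.07.

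Itga2, the collagen receptor chain known from platelets and epithelia, moved in opposite directions in different cells. In podocytes its activity was 55.1 and 58.9 at P0 and 150.5, 107 and 103 in the adult samples, so every adult sample was above both P0 samples (log2 fold change 1.05 ± 0.19 (SE), edgeR adjusted p = 2.8e-04). In LOH the order was turned, with 55.5 and 56 at P0 and 22.4, 20.8 and 14.4 in the adult samples (log2 fold change -1.57 ± 0.20 (SE), edgeR adjusted p = 1.4e-04). In CNT it fell as well, from 59.2 and 41.6 to 29.9, 23.1 and 13.9 (log2 fold change -1.41 ± 0.31 (SE), edgeR adjusted p = 0.0023, a call lost without P0 sample 1 (-1.07)). The endothelial list in LOH was at 56.6 to 63.7 at P0 and 12.3 to 31.3 in the adult, and the progenitor list at 67.5 to 75.3 and 11.9 to 21.5. In CNT the endothelial list was at 57.9 to 59.2 and 17.5 to 40.8, and the part of these markers in the falls was not tested. Endothelium led at P0 with 112 ± 9.02, ahead of PC with 63.6 ± 5.62, and podocytes led in the adult with 120.3 ± 26.2, ahead of Endo with 73.8 ± 5.66. The stage difference of Itga2 varied between clusters (F = 8.98, adjusted p = 2.1e-08, edgeR interaction test), as did that of 34 of the 36 genes, where 60.1% of all genes passed. The intronic peaks of Itga2 named here were picked in Endo at P0 and in podocytes in the adult, so their difference between cells follows from the choice. An intronic peak at chr13:114885192-114885726 was open in 14.7% of P0 endothelial nuclei, at 21.1 ± 1.26 CPM, and stood at 5.35 ± 1.99 in adult endothelium. Another, at chr13:114838546-114839181 and about 93.2 kb into the gene, had 11.6 ± 4.37 in P0 podocytes and 42.9 ± 13.5 in adult ones, while PST held 15.3 ± 1.11 and 20.4 ± 3.30. At P0 this peak was highest in PCT with 16.6 ± 1.06, and the proximal tubule list in podocytes was higher in the adult, as given above.

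Itga11, a receptor for fibrillar collagen of mesenchymal cells, was highest in NP at P0 with 91.1 ± 2.61, ahead of CNT with 64.6 ± 1.21. It fell in 10 of the 12 clusters tested and rose in none. In podocytes it went from 57.4 and 69.8 to 25.9, 14.7 and 16.5 (log2 fold change -1.83 ± 0.31 (SE), edgeR adjusted p = 1.3e-04). The progenitor list there was at 70.6 to 71.4 at P0 and 16.5 to 31.1 in the adult, and its part in the fall was not tested. In NP the values of Itga11 were 89.3 and 93 at P0 and 43.2, 57.9 and 51.5 in the adult samples (log2 fold change -0.95 ± 0.21 (SE), edgeR adjusted p = 1.4e-04). An exonic peak of Itga11 at chr9:62772701-62773217 was open in 10.3% of NP nuclei at P0 and 0.999% in the adult, at 14.9 ± 0.148 and 1.92 ± 1.67 CPM. Itga10, the collagen receptor chain of cartilage, has 4 peaks. It was at 24.8 ± 1.53 in P0 NP and 24.1 ± 4.48 in Immune, which overlapped, and it fell in CNT, from 18.5 to 4.56 (log2 fold change -1.82 ± 0.55 (SE), edgeR adjusted p = 0.019, a call lost without P0 sample 1 (-1.72), P0 sample 2 (-1.88) or P56 sample 2 (-1.34)), and in LOH.

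The laminin receptor chains Itga3, Itga6 and Itga7 were each highest in a different cluster at P0 and had 1 to 3 calls by stage. Itga3, which pairs with Itgb1 and holds podocytes to the glomerular basement membrane, was highest in podocytes at both stages. Its values there were 126 and 148 at P0 and 125, 166 and 140.2 in the adult samples, which overlapped between stages (log2 fold change 0.15 ± 0.16 (SE), edgeR adjusted p = 0.64), and the next clusters were PST at P0 with 81.6 ± 4.10 and NP in the adult with 99.1 ± 17.7. All podocyte samples lay above those of the next cluster. Its only call by stage was in Endo, from 42.7 to 58.7 (log2 fold change 0.53 ± 0.18 (SE), edgeR adjusted p = 0.045, a call lost without P0 sample 1 (0.38), P0 sample 2 (0.64) or P56 sample 1 (0.43)). The peak over the start of Itga3, at chr11:95076147-95077254, was open across epithelia, with 53.1 ± 5.71 CPM in adult podocytes and 50.5 ± 6.39 in PC. An intronic peak 1.2 kb into the gene, at chr11:95075336-95075865, was open in 22.9% of podocytes at P0 and 20.9% in the adult, or 48.9 ± 8.76 and 47.5 ± 2.70 CPM, with 14 ± 0.538 in P0 NP, the next highest. Its central 300 bases (mm10, plus strand) are shown because this peak was most open in podocytes at both stages, with the letters GCCNNNGGC (Tfap2) and GAGGAAGT (PU.1) in capitals. The other letters searched, all on both strands, were the AP-1 motif (TGA and TCA with any 1 base between them), ACCGGAAGT (Ets, which shares its last letters with PU.1), CAAAGTCCA (Hnf4), AGATAA (for Gata factors), the E-boxes CACCTG and CAGCTG, and the Hnf1 motif.
Itga3 intron, chr11:95075450-95075749: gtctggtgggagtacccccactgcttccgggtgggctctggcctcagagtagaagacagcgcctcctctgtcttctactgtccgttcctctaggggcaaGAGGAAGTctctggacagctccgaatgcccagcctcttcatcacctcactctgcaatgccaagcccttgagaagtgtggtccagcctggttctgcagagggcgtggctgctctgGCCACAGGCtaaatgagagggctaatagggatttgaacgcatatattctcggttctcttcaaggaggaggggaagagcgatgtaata
The central 300 bases of 8.99% of all peaks hold GCCNNNGGC and 2.82% hold GAGGAAGT, and 10.2% and 3.30% of the 817 peaks of this gene set do.

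Itga6, which pairs with Itgb4 in hemidesmosomes and with Itgb1 elsewhere, was open broadly. At P0 it was highest in Endo (176 ± 9.84), then Immune (154 ± 6.98), and in the adult CNT (194 ± 6.73) and IC (189 ± 4.11) led and overlapped. In CNT it rose, from 125 and 119.6 to 199, 186 and 197 (log2 fold change 0.61 ± 0.15 (SE), edgeR adjusted p = 0.0057, a call lost without P0 sample 1 (0.67) or P0 sample 2 (0.58)), and also in LOH (log2 fold change 0.44 ± 0.12 (SE), edgeR adjusted p = 0.011, a call lost without P0 sample 1 (0.45) or P0 sample 2 (0.43)). In NP it fell (log2 fold change -0.59 ± 0.20 (SE), edgeR adjusted p = 0.017, a call lost without P0 sample 1 (-0.61), P0 sample 2 (-0.60) or P56 sample 1 (-0.19)). With start-site peaks only the NP difference changed sign. One peak in an intron, chr2:71757142-71757601 was endothelial, with 19 ± 1.30 at P0 and 21.8 ± 5.32 in the adult, while the mean of the 12 other clusters was 0.929 and 0.628. Another peak at chr2:71805919-71806347 was open in IC (21 ± 5.24) and CNT (19.5 ± 5.31) of the adult. These peaks were picked in Endo at P0 and in CNT in the adult, so their openness in different cells follows from the choice.

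Itga7, the laminin receptor chain best known from muscle, was highest in the proximal tubule. PST had 55.8 ± 3.59 at P0 and 64.6 ± 1.86 in the adult, and PCT 48.3 ± 4.09 and 42.4 ± 4.15. Neither cluster was called by stage. An exonic peak at chr10:128938504-128939542 had 40.7 ± 0.656 CPM in P0 PST and 43.9 ± 0.225 in adult PST, and it was open in 38.3% and 34.2% of PST nuclei. The peak over the start of Itga7 was at 8.78 ± 1.07 in adult PST and 10.5 ± 3.38 in Stroma1. The only stage call was in Stroma1 (log2 fold change 1.08 ± 0.29 (SE), edgeR adjusted p = 0.0072, a call lost without P0 sample 1 (1.23), P0 sample 2 (0.93) or P56 sample 2 (1.05)), where the proximal tubule markers were also higher in the adult and the PST peak went from 1.69 ± 0.196 to 14 ± 3.54.

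Among the receptor chains for fibronectin and other ligands with the RGD sequence, Itga8 had the most calls towards P0. Itga8 binds nephronectin and is known for its part in the outgrowth of the ureteric bud into the kidney mesenchyme. At P0 it was highest in Stroma2 (229 ± 17.1) and Stroma1 (209 ± 8.78), and it fell in 8 of the 13 clusters and rose in none. In NP the values were 97.5 and 84.8 at P0 and 38.9, 15.2 and 16.3 in the adult samples (log2 fold change -2.21 ± 0.28 (SE), edgeR adjusted p = 9.1e-10). In Stroma1 they were 215 and 203 at P0 and 85, 124 and 46.6 in the adult samples (log2 fold change -1.58 ± 0.22 (SE), edgeR adjusted p = 2.1e-05). Stroma2 went from 241 and 217 to 107, 116 and 84.9 (log2 fold change -1.23 ± 0.15 (SE), edgeR adjusted p = 5.6e-05), and remained the highest cluster, overlapping with Stroma1. In Endo it fell too (log2 fold change -1.20 ± 0.21 (SE), edgeR adjusted p = 0.002). There the stromal list was at 50.9 to 60 at P0 and 24.7 to 38.1 in the adult, and its part in the fall was not tested. The stage groups did not overlap in these 4 clusters. The peak over the start of Itga8 had 35.4 ± 4.22 in P0 NP and 30.7 ± 3.90 in P0 Stroma1. The intronic peak chr2:12154803-12155214 had 4.64 ± 0.443 in P0 Stroma2, its highest cluster, and 6.56 ± 2.73 in adult Stroma2.

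Itga5, the main fibronectin receptor chain, was endothelial. Endo had 68.1 ± 3.76 at P0 and 69.1 ± 6.53 in the adult, against 37 ± 1.74 in P0 Stroma1 and 34.8 ± 21 in adult podocytes, the next highest. Its level in Endo was not called by stage (log2 fold change 0.05 ± 0.17 (SE), edgeR adjusted p = 0.86), and it fell in LOH (log2 fold change -0.93 ± 0.20 (SE), edgeR adjusted p = 0.0032, a call lost without P0 sample 1 (-0.92)) and in PC. An exonic peak at chr15:103358141-103359635 was at 30.2 ± 0.318 in P0 Endo and 26.5 ± 2.11 in adult Endo. Itgav, the shared partner of Itgb3, Itgb5, Itgb6 and Itgb8, was nearly even across cells, with the highest cluster 1.74 times the lowest at P0 and 2.07 times in the adult. It fell in NP (log2 fold change -0.59 ± 0.18 (SE), edgeR adjusted p = 0.0066, a call lost without P0 sample 1 (-0.51) or P56 sample 2 (-0.51)) and rose in CNT (log2 fold change 0.53 ± 0.17 (SE), edgeR adjusted p = 0.026, a call lost without P0 sample 2 (0.37) or the P21 sample (0.51)). Of the 13 clusters tested, 1 was called towards P0 and 2 towards the adult, and the CNT difference changed sign with thinned nuclei.

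Itga2b, the fibrinogen receptor chain of platelets, was not led by a blood cell cluster. At P0 IC (83.8 ± 21.9) and PST (83.2 ± 3.88) were highest and overlapped, and Immune was lowest with 21.9. Itga2b rose in NP, from 47.4 and 57 to 112, 116 and 122 (log2 fold change 1.02 ± 0.17 (SE), edgeR adjusted p = 1.4e-06), where the adult nuclei carried few progenitor markers. In Endo it fell (log2 fold change -0.58 ± 0.17 (SE), edgeR adjusted p = 0.024, a call lost without P0 sample 1 (-0.57), P0 sample 2 (-0.60) or the P21 sample (-0.50)).

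Itga4 and Itga9 form a small branch of the family. Itga4, the receptor chain by which leukocytes bind VCAM1 and fibronectin, was highest in Immune, with 126 and 146 at P0 and 177, 145 and 79.9 in the adult samples. It was not called by stage there (log2 fold change -0.19 ± 0.29 (SE), edgeR adjusted p = 0.89), in the cluster with the fewest calls over all genes. In 8 of the 9 clusters tested it fell. In Endo its values were 21.8 and 19.2 at P0 and 11.1, 2.63 and 0.787 in the adult samples (log2 fold change -2.54 ± 0.48 (SE), edgeR adjusted p = 0.003, a call lost without P0 sample 1 (-2.33)), where the immune list was at 66.1 to 66.9 at P0 and 45.6 to 53.1 in the adult. LOH went from 26.9 and 24.2 to 3.84, 4.93 and 2.97 (log2 fold change -2.71 ± 0.29 (SE), edgeR adjusted p = 6.5e-05). In Stroma2, the next highest cluster at P0, it went from 38.1 ± 0.395 to 12.6 ± 1.66 (log2 fold change -1.64 ± 0.19 (SE), edgeR adjusted p = 3.4e-05). NP held 30.3 and 27.3 at P0 and 0, 3.05 and 0 in the adult samples (log2 fold change -4.82 ± 0.74 (SE), edgeR adjusted p = 1.5e-07), and with adult samples at 0 the fitted fold change depends on the prior count. Without P0 sample 1 Itga4 had too few calls in NP to be tested. All P0 samples were above all adult samples in these 4 clusters. The peak over the start of Itga4, at chr2:79254793-79256233, was open in 40.2% of immune nuclei at P0 and 33.9% in the adult, at 104 ± 6.80 and 113 ± 47.5 CPM. In Endo its level was 18.5 ± 2.65 at P0 and 1.58 ± 1.59 in the adult (log2 fold change -3.70 ± 0.51 (SE), edgeR adjusted p = 1.2e-05).

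**Figure D3:**
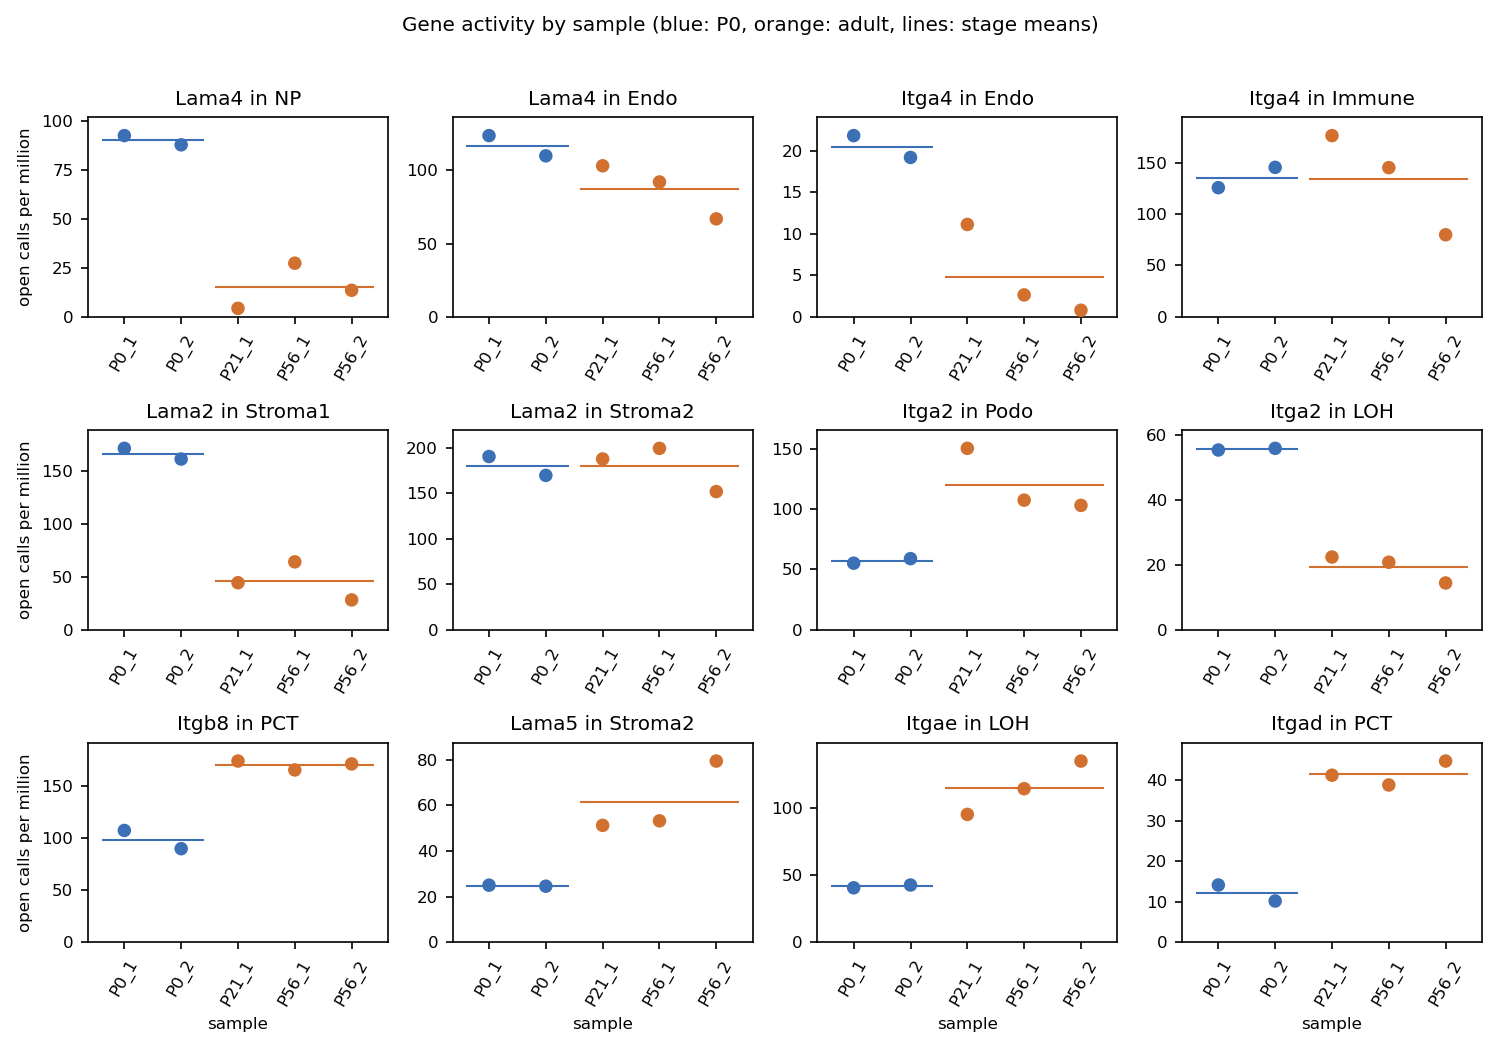
Each panel shows gene activity in CPM (vertical axis, from 0) of 1 gene in 1 cluster for the 5 samples (horizontal axis), blue for P0 and orange for adult, with lines at the stage means. Lama4 in NP, Itga4 in Endo, Lama2 in Stroma1 and Itga2 in LOH are lower in every adult sample, Lama4 in Endo is lower by less, Itga4 in Immune and Lama2 in Stroma2 overlap, and in the other 5 panels every adult sample is higher.

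Itga9, which binds tenascin-C and VCAM1, was stromal at both stages. Stroma1 (524 ± 19.4) and Stroma2 (517 ± 4.73) overlapped at P0, and in the adult Stroma2 had 549 ± 22.5 and Stroma1 415 ± 98.6. In Stroma2 it was not called by stage (log2 fold change 0.01 ± 0.13 (SE), edgeR adjusted p = 0.95). Itga9 fell in 6 of the 13 clusters tested and rose in none. In PC it had 217 and 216 at P0 and 86.5, 68.8 and 81.6 in the adult samples (log2 fold change -1.52 ± 0.14 (SE), edgeR adjusted p = 1.2e-06). CNT showed the same direction, with 155 and 174 at P0 and 48.9, 72.4 and 44.8 in the adult samples (log2 fold change -1.61 ± 0.20 (SE), edgeR adjusted p = 1.5e-05). The stromal list in PC was at 61.5 to 66.8 at P0 and 27.6 to 38.5 in the adult, and in CNT at 61.5 to 61.7 at P0 and 28.2 to 39.9 in the adult. An intronic peak of Itga9 at chr9:118629733-118630645 was open in 46.3% of Stroma2 nuclei at P0 and 23.8% in the adult. The levels in CPM were 61.2 ± 1.85 and 59.8 ± 3.61. In Stroma1 the same peak had 49 ± 1.27 at P0 and 6.88 ± 3.24 in the adult. Its central 300 bases (mm10, plus strand) are shown because Stroma2 was its highest cluster at both stages, and they hold none of the motif letters searched, so no letter is in capitals.
Itga9 intron, chr9:118630039-118630338: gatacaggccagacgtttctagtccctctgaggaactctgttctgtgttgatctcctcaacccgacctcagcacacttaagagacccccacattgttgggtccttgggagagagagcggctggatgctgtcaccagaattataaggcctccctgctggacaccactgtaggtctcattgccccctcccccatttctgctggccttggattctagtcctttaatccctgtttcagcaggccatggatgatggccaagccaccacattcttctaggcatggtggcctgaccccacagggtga

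The alpha chains of leukocytes, Itgad, Itgal, Itgam and Itgax, pair with Itgb2, and Itgae pairs with Itgb7. Itgam and Itgax, which mark macrophages and dendritic cells, had few calls, and only 3 clusters of Itgam and 1 of Itgax could be tested by stage. In Immune Itgam had 50.2 ± 19.1 at P0 and 33.9 ± 12.8 in the adult, neither tested there, and Itgax 10.1 ± 7.91 and 25.7 ± 12.6. Itgam was called in LOH, on 3.71 and 1.20 CPM (log2 fold change -1.93 ± 0.61 (SE), edgeR adjusted p = 0.022, a call lost without P0 sample 1 (-1.65), P0 sample 2 (-2.12) or P56 sample 2 (-1.62)). The next cluster of Itgam was PC, with 11 ± 1.89 and 14.9 ± 6.61, and all its peaks are shared with another gene. Itgb2 was also highest in Immune, with 139 and 77.4 at P0 and 99.8, 105 and 66.2 in the adult samples, and was not called there by stage (log2 fold change -0.45 ± 0.30 (SE), edgeR adjusted p = 0.65).

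Itgal, which lets lymphocytes bind ICAM1, had a start-site peak that was open almost only in Immune. That peak, at chr7:127296171-127296602, was at 20.9 ± 3.81 CPM in P0 Immune and 42.2 ± 23.3 in adult Immune, where the mean of the 12 other clusters was 0.619 and 0.133. Over the whole gene PCT (36.3 ± 0.628) and DCT (34.2 ± 3.70) overlapped at P0, and Immune had 29 ± 3.99. The intronic peak chr7:127325580-127327306 had 29.5 ± 1.82 in P0 PCT and 25 ± 6.26 in adult PCT. In the adult Immune led with 57.4 ± 17. By stage Itgal was called in NP (log2 fold change -1.46 ± 0.42 (SE), edgeR adjusted p = 0.0037, a call lost without the P21 sample (-0.97)), and could not be tested there without P0 sample 1 or 2. The central 300 bases of the start-site peak (mm10, plus strand) are given because it was open in Immune and near 0 elsewhere, with GAGGAAGT (PU.1, a factor of myeloid cells) and CAGCTG (an E-box), on either strand, in capitals.
Itgal start, chr7:127296236-127296535: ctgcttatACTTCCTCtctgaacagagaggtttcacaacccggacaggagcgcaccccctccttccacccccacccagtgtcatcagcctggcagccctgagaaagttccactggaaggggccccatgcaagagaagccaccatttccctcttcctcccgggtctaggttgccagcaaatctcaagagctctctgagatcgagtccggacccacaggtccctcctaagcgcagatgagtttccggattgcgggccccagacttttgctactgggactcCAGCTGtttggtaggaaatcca
CAGCTG is in 19.8% of all peaks and 21.5% of those of this gene set.

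Itgad and Itgae, although known from leukocytes, were highest in Immune at P0, with 33.3 ± 8.50 and 82.3 ± 13.4, and in tubule clusters in the adult. Itgad went in PCT from 14.1 and 10.2 at P0 to 41.2, 38.8 and 44.7 in the adult (log2 fold change 1.88 ± 0.19 (SE), edgeR adjusted p = 4.1e-04). Adult Immune had 28.9 ± 10.1, and Itgad also rose in PC (log2 fold change 1.20 ± 0.34 (SE), edgeR adjusted p = 0.013, a call lost without P0 sample 1 (1.11) or P0 sample 2 (1.36)). The immune list (C1qb, Ptprc, Csf1r, Spi1) in PCT was at 101 to 102 at P0 and 72.2 to 89 in the adult, against 352 to 597 in adult Immune. An intronic peak at chr7:128220861-128221548 was open in 2.27% of PCT nuclei at P0 and 13.1% in the adult. In CPM this peak had 3.30 ± 1.28 and 21.4 ± 4.57 in PCT, and in Immune 18.6 ± 7.03 and 4.87 ± 5.02. Its central 300 bases (mm10, plus strand), shown because the same peak was open in P0 immune nuclei and adult PCT nuclei, hold none of the letters searched, among them CAAAGTCCA (Hnf4).
Itgad intron, chr7:128221054-128221353: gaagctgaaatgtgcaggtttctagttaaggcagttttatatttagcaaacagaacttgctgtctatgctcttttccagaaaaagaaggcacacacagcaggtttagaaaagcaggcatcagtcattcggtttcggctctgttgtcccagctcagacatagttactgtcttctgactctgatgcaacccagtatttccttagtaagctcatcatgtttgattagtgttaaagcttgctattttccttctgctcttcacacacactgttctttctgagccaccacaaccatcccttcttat

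Itgae, which binds E-cadherin and keeps T cells in epithelia, was at 40.6 and 42.7 at P0 and 95.3, 114 and 135 in the adult samples in LOH (log2 fold change 1.51 ± 0.17 (SE), edgeR adjusted p = 8.8e-05). Adult LOH was above adult Immune, at 72.8 ± 11.1, in every sample. The immune list in LOH stood at 90.1 to 92.5 at P0 and 79.4 to 106 in the adult. An intronic peak at chr11:73146560-73146881 picked in adult LOH had 2.08 ± 1.27 in P0 LOH and 19 ± 4.24 in adult LOH, and DCT at 13.1 ± 2.59 was the next highest. Itgb7, the beta chain that pairs with Itgae and Itga4, was highest in Immune, where its level overlapped with that of the next cluster at both stages, and it fell in LOH (log2 fold change -0.66 ± 0.25 (SE), edgeR adjusted p = 0.045, a call lost without P0 sample 1 (-0.71), P0 sample 2 (-0.61) or P56 sample 1 (-0.45)), in the direction opposite to Itgae.

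Among the beta chains, the 19 calls by stage of Itgb5, Itgb6 and Itgb8 were all towards the adult, and the 16 of Itgb1, Itgb3, Itgb4 and Itgb7 all towards P0. Itgb2 had 1 call, towards the adult. Itgb1, the partner of most alpha chains, was the most even of the 36 genes at P0, with 77 in the highest and 52.5 in the lowest cluster at P0. It fell in LOH (log2 fold change -0.49 ± 0.16 (SE), edgeR adjusted p = 0.022, a call lost without P0 sample 1 (-0.40), P0 sample 2 (-0.58) or the P21 sample (-0.43)), CNT (log2 fold change -0.72 ± 0.23 (SE), edgeR adjusted p = 0.024, a call lost without P0 sample 1 (-0.83) or P0 sample 2 (-0.58)) and PC (log2 fold change -0.54 ± 0.16 (SE), edgeR adjusted p = 0.019, a call lost without P0 sample 1 (-0.56), P0 sample 2 (-0.50) or P56 sample 2 (-0.44)). Itgb3, the vitronectin and fibrinogen receptor chain, fell in 8 of 13 clusters. In PST it had 30.3 and 38.2 at P0 and 9.33, 11 and 8.95 in the adult samples (log2 fold change -1.73 ± 0.28 (SE), edgeR adjusted p = 0.003, a call lost without P0 sample 1 (-1.85) or P0 sample 2 (-1.56)). LOH went from 41.5 and 35.9 to 21.1, 16.2 and 17.6 (log2 fold change -1.08 ± 0.19 (SE), edgeR adjusted p = 0.001). Itgb4, the hemidesmosome chain, led in IC at both stages (71.9 ± 5.13 and 71.6 ± 6.55) and fell in PCT, LOH, DCT and CNT, in DCT from 60.9 to 29.2 (log2 fold change -1.16 ± 0.27 (SE), edgeR adjusted p = 0.016, a call lost without P0 sample 1 (-1.19), P0 sample 2 (-1.09) or P56 sample 2 (-0.99)).

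Itgb5, which pairs with Itgav, was highest in podocytes. Its podocyte values were 450.0 and 452 at P0 and 649, 611 and 656 in the adult samples (log2 fold change 0.52 ± 0.12 (SE), edgeR adjusted p = 0.0044, a call lost without P0 sample 1 (0.52) or P0 sample 2 (0.47)), and the next clusters were Immune at P0 with 329 ± 39.7 and Stroma2 in the adult with 401 ± 62.4. Of 13 clusters it rose in 7, in LOH from 129 and 114 to 159, 234 and 199 (log2 fold change 0.73 ± 0.17 (SE), edgeR adjusted p = 0.0042, a call lost without P0 sample 2 (0.62)). In an intron of Itgb5 the peak chr16:33872093-33873089 was open in 17.7% of podocytes at P0 and 28.4% in the adult, at 38.1 ± 2.35 and 63.1 ± 9.84 CPM, with PC next at 11.2 ± 4.36 in the adult.

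Itgb6 and Itgb8 both pair with Itgav and are known to release TGF-beta from its latent complex. Itgb6, an epithelial chain, was highest in PCT (258 ± 21.2) and PST (253 ± 12) at P0, which overlapped. In LOH it rose, with 134 and 136 at P0 and 255, 308 and 266 in the adult samples (log2 fold change 1.06 ± 0.13 (SE), edgeR adjusted p = 1.4e-04), and LOH then led, overlapping with PCT (249 ± 37.2). It rose also in CNT (log2 fold change 0.79 ± 0.16 (SE), edgeR adjusted p = 0.0013). It rose in NP (log2 fold change 1.5 ± 0.15 (SE), edgeR adjusted p = 5.1e-13) and Stroma1 (log2 fold change 1.56 ± 0.16 (SE), edgeR adjusted p = 1.2e-06), where the adult nuclei had lower levels of their own markers. Immune showed a log2 fold change of 2.43 ± 0.72 (SE) with an adjusted p of 0.25 by edgeR, on 17.6 and 65.1 CPM. The proximal tubule list there was at 63.7 to 81.3 at P0 and 123 to 297 in the adult, and its part in this difference was not tested.

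Itgb8 was highest in PST and PCT. In PCT its values were 107 and 89.7 at P0 and 174, 165 and 171 in the adult samples, with every adult sample above both P0 samples (log2 fold change 0.90 ± 0.11 (SE), edgeR adjusted p = 9.1e-04). In PST it went from 111 and 107 to 222, 178 and 188 (log2 fold change 0.92 ± 0.15 (SE), edgeR adjusted p = 0.0027, a call lost without P0 sample 1 (0.98) or P0 sample 2 (0.87)). Podocytes had 79.9 and 69.8 at P0 and 187, 152 and 140.2 in the adult samples (log2 fold change 1.11 ± 0.17 (SE), edgeR adjusted p = 3.4e-05), and the proximal tubule list there was at 64.3 to 76 at P0 and 118 to 227 in the adult. Stroma2 showed a like rise, from 41.8 to 95.5 (log2 fold change 1.09 ± 0.15 (SE), edgeR adjusted p = 9.6e-05), where the proximal tubule list was at 60.3 to 68.3 at P0 and 59.6 to 149.8 in the adult. An intronic peak of Itgb8 at chr12:119229523-119230308 was open in 23.3% of PST nuclei at P0 and 32.9% in the adult, and in PCT its level was 18.5 ± 2.90 and 36.6 ± 5.69. Another, at chr12:119232068-119232404, had 5.63 ± 0.781 and 15.6 ± 2.26 there. Itgb2 rose in Stroma2 (log2 fold change 1.15 ± 0.40 (SE), edgeR adjusted p = 0.038, a call lost without P0 sample 1 (1.13), P0 sample 2 (1.16) or P56 sample 2 (0.60)), on 3.46 and 8.04 CPM, while the immune list there was at 58.8 to 63.3 and 46.3 to 52.5.

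The 5 laminin alpha chains took different courses. Lama4, the alpha chain of endothelial and mesenchymal basement membranes, fell in 10 of the 11 clusters tested. In NP its values were 92.7 and 88 at P0 and 4.32, 27.4 and 13.6 in the adult samples (log2 fold change -2.62 ± 0.30 (SE), edgeR adjusted p = 4.4e-11). LOH went from 51.9 and 44.9 to 13.4, 8.45 and 5.93 (log2 fold change -2.49 ± 0.26 (SE), edgeR adjusted p = 5.8e-05). In CNT it had 33 and 37.8 at P0 and 13.6, 11.1 and 3.02 in the adult samples (log2 fold change -2.31 ± 0.44 (SE), edgeR adjusted p = 7.1e-04). In LOH the stromal list was at 75.8 to 78.3 at P0 and 30.7 to 33.8 in the adult and the endothelial list at 56.6 to 63.7 at P0 and 12.3 to 31.3 in the adult. In CNT they were at 61.5 to 61.7 at P0 and 28.2 to 39.9 in the adult, and at 57.9 to 59.2 at P0 and 17.5 to 40.8 in the adult, and their part in the fall was not tested. In Stroma2 Lama4 fell from 71.6 ± 4.97 to 34.8 ± 10.3 (log2 fold change -1.06 ± 0.19 (SE), edgeR adjusted p = 8.1e-04). The exception was Endo, where it was highest at both stages, with 124 and 109.9 at P0 and 103, 92.1 and 66.9 in the adult samples, and was not called (log2 fold change -0.44 ± 0.18 (SE), edgeR adjusted p = 0.083), although the stage groups did not overlap. The stage difference of Lama4 varied between clusters by the interaction test (F = 8.06, adjusted p = 1.1e-07).

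The peak over the start of Lama4, at chr10:38965067-38966402, was at 19 ± 1.30 in P0 Endo, close to Stroma1 with 18.8 ± 0.675, and at 22 ± 2.07 in adult Endo. An intronic peak at chr10:38979695-38980233 had 5.14 ± 2.67 in P0 Endo and 19.1 ± 7.53 in adult Endo. Another, at chr10:38989873-38990212, had 7.37 ± 0.188 and 3.69 ± 0.928. The central 300 bases (mm10, plus strand) of both intronic peaks are shown because Endo was their highest cluster at both stages, with AGATAA (for Gata factors) and the AP-1 motif, on either strand, in capitals.
Lama4 intron, adult endothelium, chr10:38979814-38980113: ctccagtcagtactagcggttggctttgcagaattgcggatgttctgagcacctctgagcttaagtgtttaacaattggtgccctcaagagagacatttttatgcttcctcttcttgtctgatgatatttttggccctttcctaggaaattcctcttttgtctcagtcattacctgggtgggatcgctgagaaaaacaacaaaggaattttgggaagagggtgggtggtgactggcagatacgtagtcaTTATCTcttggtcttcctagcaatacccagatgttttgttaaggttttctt
Lama4 intron, P0 endothelium, chr10:38989892-38990191: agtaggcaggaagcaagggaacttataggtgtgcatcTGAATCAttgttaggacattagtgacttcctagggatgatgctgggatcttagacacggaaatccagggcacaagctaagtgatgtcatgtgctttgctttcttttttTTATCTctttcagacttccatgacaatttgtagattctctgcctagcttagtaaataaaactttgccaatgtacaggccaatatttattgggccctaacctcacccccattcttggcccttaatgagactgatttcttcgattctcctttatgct
AGATAA is in 15.3% of all peaks and 14% of those of this gene set, and the AP-1 motif in 10.5% and 9.79%.

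Lama2, the alpha chain of muscle and mesangial matrix, differed between the stromal clusters in the adult. In Stroma1 its values were 171 and 161 at P0 and 44.2, 63.9 and 28 in the adult samples (log2 fold change -2.15 ± 0.22 (SE), edgeR adjusted p = 1.3e-06). Stroma2 had 191 and 169.7 at P0 and 188, 199.5 and 152 in the adult samples, which overlapped (log2 fold change -0.08 ± 0.15 (SE), edgeR adjusted p = 0.72). Its fall in Stroma1 stood beside the lower stromal markers and higher proximal tubule markers of adult Stroma1. Lama2 fell in 7 of the 12 clusters tested and rose in none. In NP the fall was a log2 fold change of -1.52 ± 0.28 (SE) (edgeR adjusted p = 6.5e-06). The stromal list was also lower in the adult in LOH, CNT, PC, IC and Endo, and its mean was higher in Podo and Stroma2. In LOH this list was at 75.8 to 78.3 at P0 and 30.7 to 33.8 in the adult. In Endo it was at 50.9 to 60 at P0 and 24.7 to 38.1 in the adult. The part of these markers in the falls of Lama2 was not tested. In Stroma2 the intronic peak at chr10:27101989-27102891 was at 12.5 ± 0.155 at P0 and 4.64 ± 1.13 in the adult. The peak over a start of Lama2, at chr10:27616444-27617639, had there 18 ± 2.25 and 16.8 ± 2.44 (log2 fold change -0.14 ± 0.23 (SE), edgeR adjusted p = 0.62).

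Lama1, the alpha chain of the early nephron's basement membrane, was highest in PCT and PST. In PCT it had 203 and 189 at P0 and 165, 177 and 179 in the adult samples and was not called (log2 fold change -0.06 ± 0.11 (SE), edgeR adjusted p = 0.71), while in PST it fell from 177 ± 7.64 to 90.9 ± 14.7 (log2 fold change -0.88 ± 0.17 (SE), edgeR adjusted p = 0.0056, a call lost without P0 sample 1 (-0.81) or P0 sample 2 (-0.94)). LOH went from 153 and 140.1 to 72.3, 69.4 and 46.5 (log2 fold change -1.23 ± 0.18 (SE), edgeR adjusted p = 3.0e-04). In Stroma2 it fell as well (log2 fold change -0.92 ± 0.19 (SE), edgeR adjusted p = 0.0023). Of its 12 clusters tested, 8 fell and none rose. Lama5, the alpha chain of mature tubular and glomerular basement membranes, had 4 calls of gene activity towards the adult and none towards P0, and the one in LOH was called in the opposite direction with start-site peaks only. In Stroma2 it had 25 and 24.5 at P0 and 51.2, 53.2 and 79.4 in the adult samples (log2 fold change 1.25 ± 0.17 (SE), edgeR adjusted p = 1.3e-04). Stroma1 went from 34.3 and 38.8 to 184, 175 and 171 (log2 fold change 2.11 ± 0.15 (SE), edgeR adjusted p = 3.3e-08). NP went from 73.6 to 167 (log2 fold change 1.06 ± 0.16 (SE), edgeR adjusted p = 5.4e-08). The NP and Stroma1 rises stood beside the marker values given above for these clusters. In Stroma1 an intronic peak of Lama5 at chr2:180214327-180215616 had 6.44 ± 3.19 at P0 and 51.9 ± 16.2 in the adult, and at P0 that peak was highest in PST with 42.2 ± 1.48. In Podo, PCT and PST, where Lama5 was high at P0, the log2 fold changes were 0.07 ± 0.16 (SE), 0.01 ± 0.10 (SE) and -0.11 ± 0.13 (SE), and none was called. The peak over the start of Lama5 was called lower in the adult in Podo (log2 fold change -1.24 ± 0.33 (SE), edgeR adjusted p = 0.011), PST (log2 fold change -1.01 ± 0.28 (SE), edgeR adjusted p = 0.026) and PC (log2 fold change -0.59 ± 0.21 (SE), edgeR adjusted p = 0.032) and higher in Stroma1 (log2 fold change 1.53 ± 0.34 (SE), edgeR adjusted p = 1.0e-04). The proximal tubule list in Stroma2 was at 60.3 to 68.3 at P0 and 59.6 to 149.8 in the adult.

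Lama3, the alpha chain of epithelial laminin that pairs with Lamb3, moved both ways. In PCT it rose, with 101 and 103 at P0 and 126, 151 and 135 in the adult samples (log2 fold change 0.55 ± 0.12 (SE), edgeR adjusted p = 0.0099, a call lost without P0 sample 1 (0.54) or P0 sample 2 (0.55)). In LOH it had 76.2 and 80.6 at P0 and 48.6, 31.7 and 24.6 in the adult samples (log2 fold change -1.21 ± 0.22 (SE), edgeR adjusted p = 0.0012). It fell in NP, CNT and PC as well. DCT fell from 85.6 to 36.6 (log2 fold change -1.21 ± 0.24 (SE), edgeR adjusted p = 0.0064, a call lost without P0 sample 1 (-0.98) or P0 sample 2 (-1.42)). At P0 Endo (112 ± 7.36) and PST (111 ± 2.80) overlapped at the top, and in the adult PCT (137 ± 12.6) and Endo (126 ± 40.4) did. One intronic peak of Lama3 was highest in Endo, at 28.7 ± 1.84 at P0 and 27.9 ± 8.68 in the adult. An exonic one, picked in adult PCT, had 1.89 ± 0.132 in P0 PCT and 16 ± 1.58 in adult PCT.

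**Figure D4:**
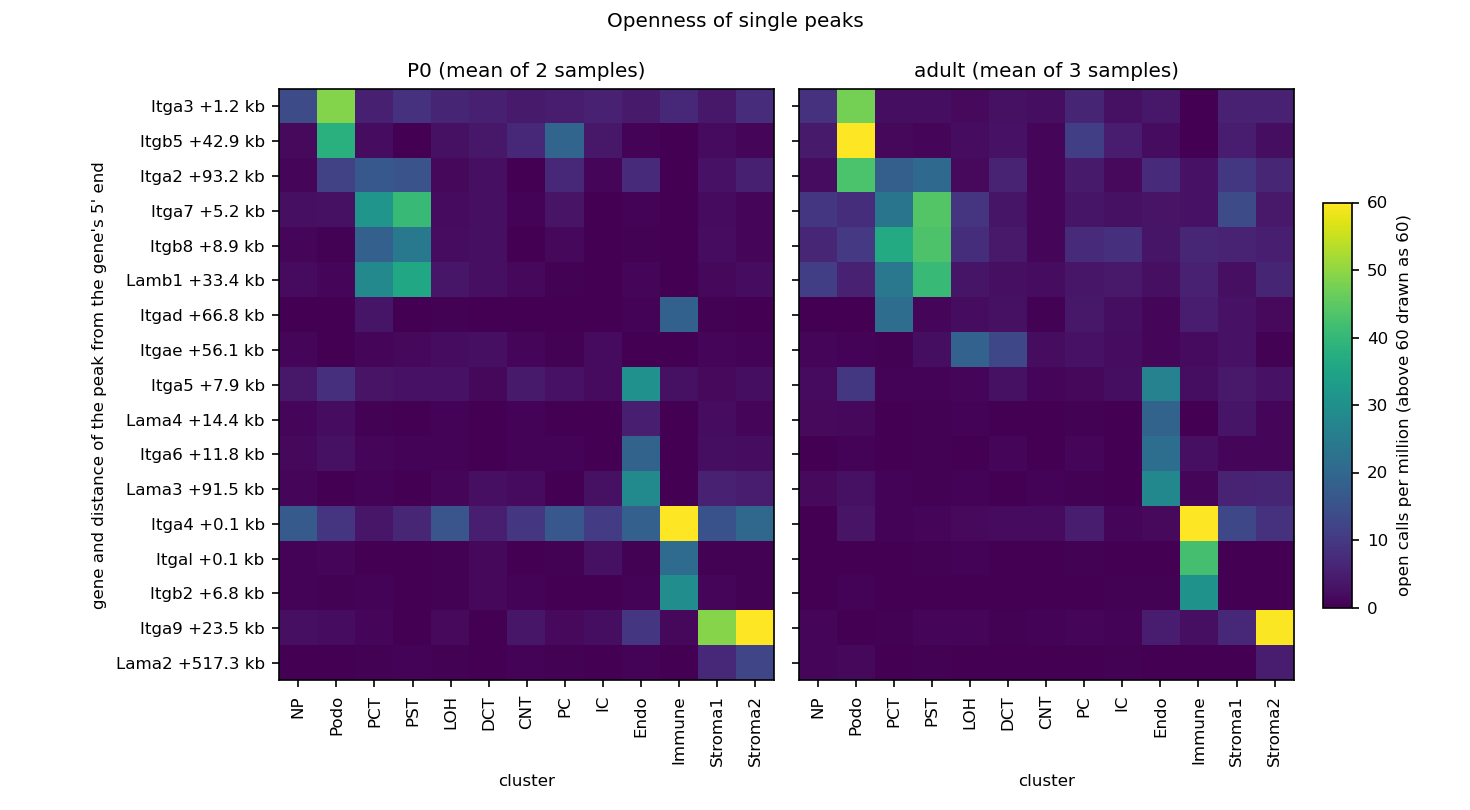
Each square is the openness of 1 peak in CPM (colour, up to 60) in 1 cluster, at P0 (left) and in the adult (right), with rows named by gene and by the distance of the peak's middle from the 5′ end of the gene. The Itga3 and Itgb5 peaks are brightest in Podo at both stages, those of Itga7, Itgb8 and Lamb1 in PST, those of Lama4, Itga5, Itga6 and Lama3 in Endo, and in the adult the Itgad peak is brightest in PCT and the Itgae peak in LOH. Each peak was picked in the leading cluster of its gene at P0 or in the adult, so this pattern follows in part from the choice.

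The laminin beta chains Lamb1 and Lamb3 were highest in the proximal tubule at P0. Lamb1, the embryonic beta chain, had 201 ± 20.8 in PST and 181 ± 5.15 in PCT at P0. In the adult PST had 232 ± 6.59 and overlapped with NP at 213 ± 29.6, where it rose (log2 fold change 0.65 ± 0.15 (SE), edgeR adjusted p = 2.0e-04, a call lost without P0 sample 1 (0.63)). An exonic peak of Lamb1 at chr12:31298189-31299152 was open in 33.9% of PST nuclei at P0 and 32.2% in the adult, at 35.7 ± 7.77 and 40.7 ± 2.94 CPM, with PCT at 28.3 ± 1.85 and 24 ± 6.94. Its central 300 bases (mm10, plus strand) are shown because this peak was open in the proximal tubule and holds CAAAGTCCA (Hnf4, a factor of that tubule) in capitals, on either strand.
Lamb1 exonic peak, chr12:31298520-31298819: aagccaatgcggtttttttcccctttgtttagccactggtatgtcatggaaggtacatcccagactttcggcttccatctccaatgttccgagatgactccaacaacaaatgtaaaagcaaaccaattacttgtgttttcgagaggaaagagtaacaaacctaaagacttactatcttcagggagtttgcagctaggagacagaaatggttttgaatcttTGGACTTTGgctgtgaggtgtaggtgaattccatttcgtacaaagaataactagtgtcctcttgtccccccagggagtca
CAAAGTCCA is in 0.809% of all peaks and 0.734% of those of this gene set.

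Lamb2, the beta chain of the mature glomerular basement membrane, has 4 peaks and was even across cells. It rose in Endo, from 69.1 and 77.8 to 111, 103 and 97.6 (log2 fold change 0.50 ± 0.15 (SE), edgeR adjusted p = 0.029, a call lost without P0 sample 1 (0.45), P0 sample 2 (0.56) or the P21 sample (0.48)), and in podocytes the P0 mean was 78.7 ± 2.73 and the adult mean 85.2 ± 16.9 (log2 fold change 0.08 ± 0.20 (SE), edgeR adjusted p = 0.87). Lamb3 was highest in PCT at P0 (255 ± 6.84) and in Stroma2 in the adult. Stroma2 went from 191 and 189 to 367, 352 and 381 (log2 fold change 0.87 ± 0.12 (SE), edgeR adjusted p = 1.7e-04). It rose in PCT (log2 fold change 0.39 ± 0.11 (SE), edgeR adjusted p = 0.022, a call lost without P0 sample 1 (0.42) or P0 sample 2 (0.36)) and NP (log2 fold change 1.05 ± 0.16 (SE), edgeR adjusted p = 8.3e-08) and fell in DCT (log2 fold change -0.76 ± 0.20 (SE), edgeR adjusted p = 0.031, a call lost without P0 sample 1 (-0.87), P0 sample 2 (-0.59) or P56 sample 2 (-0.64)). Its peak over a start site was highest in PC at P0, at 5.43 ± 1.34, and had 1.52 ± 0.393 in P0 PCT. Many peaks of its window are shared with another gene, so its level is uncertain.

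The gamma chain Lamc1, part of most laminins, was open in all clusters, with the highest cluster 2.22 times the lowest at P0 and 1.71 times in the adult. It fell in NP, PCT, LOH, CNT and PC, in CNT from 169 and 161 to 87, 97.5 and 95.6 (log2 fold change -0.85 ± 0.16 (SE), edgeR adjusted p = 5.8e-04). With start-site peaks only the CNT difference changed sign. Lamc3, a rarer gamma chain, was highest in podocytes (97 ± 5.47) and NP (79.6 ± 7.47) at P0. In podocytes it fell, with 93.1 and 101 at P0 and 46.7, 42.1 and 57.7 in the adult samples (log2 fold change -1.01 ± 0.21 (SE), edgeR adjusted p = 0.0016), where the progenitor list was at 70.6 to 71.4 at P0 and 16.5 to 31.1 in the adult. Stroma2 rose from 45.9 to 65.7 (log2 fold change 0.47 ± 0.16 (SE), edgeR adjusted p = 0.035, a call lost without P0 sample 1 (0.36), P0 sample 2 (0.56) or P56 sample 2 (0.34)). An intronic peak of Lamc3 at chr2:31892954-31893819 was open in 10.1% of P0 podocytes and 4.06% of adult ones, at 21.6 ± 0.991 and 7.61 ± 8.32 CPM.

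Per kb of peak, the mean level over the 13 clusters sets genes beside each other only roughly. An open peak counts as 1 call in a nucleus whatever its width, so the value also depends on the widths and kinds of a gene's peaks. Lamb2 was highest at both stages with 20.6 CPM per kb at P0 and 23.2 in the adult, followed by Itga2b with 18.9 and 18.9. Among laminin alpha chains Lama5 had 12.2 and 16, Lama1 8.04 and 5.61, and Lama4 3.97 and 1.76. At the level of single peaks, 498 peaks of the set could be tested between clusters at P0 and 188 in the adult. Higher in a cluster were 1403 of 6474 pairs of a peak and a cluster at P0 (21.7%) and 505 of 2444 in the adult (20.7%), against 453230 of 2267278 (20%) and 19.9% over all peaks. By stage, 277 of 1391 pairs (19.9%) were called towards P0 and 276 (19.8%) towards the adult, against 18.0% and 16.0%. The peaks of Itgb5 had 45 calls towards the adult and 6 towards P0, those of Itga8 had 1 and 23, and those of Itga9 had 26 and 46.

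The other genes of the pathway were taken from a list of 36 genes. Of the 14 genes for further basement membrane proteins and integrin ligands, 58 of 161 pairs with a cluster (36%) were called towards P0 and 22 (13.7%) towards the adult, beside the 13.7% and 10.5% of all pairs. Frem1, a protein of embryonic basement membranes, fell in 10 of 11 clusters, in NP by a log2 fold change of -3.94 ± 0.44 (SE). Tnc, the tenascin that Itga9 binds, fell in 8 of 11, in NP by -2.75 ± 0.31, and Fn1, the ligand of Itga5, in 9 of 10, in LOH by -3.20 ± 0.28. Npnt, the ligand of Itga8, rose in 5 of 12 clusters and fell in 1, PCT (-0.54 ± 0.14). Among the rises were NP (0.87 ± 0.18), Podo (0.79 ± 0.17) and Stroma2 (0.65 ± 0.16), where its receptor fell. Of the 4 other laminin receptors, 7 of 50 pairs (14.0%) were called towards P0 and 15 (30.0%) towards the adult, 8 of them of Sdc4, a syndecan. Among the 18 activators and adaptors of integrins inside the cell, 21 of 218 pairs (9.63%) were called towards P0 and 49 (22.5%) towards the adult. Lims2, a partner of Ilk, rose in 8 of 12 clusters, in Stroma1 by 2.32 ± 0.19 and in Podo by 1.38 ± 0.20, and Ilk itself was called in none of 13. These changes were called by edgeR at an adjusted p under 0.05, and whether they hold with a sample left out is not given.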

How the data were processed

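Nuclei of 5 mouse kidney samples were profiled by snATAC-seq, 2 at P0, 1 at P21 and 2 at P56. Per the study's methods, the authors processed reads with Cell Ranger ATAC 1.1.0 on mm10, clustered nuclei in SnapATAC after Harmony, called peaks with MACS2 for each cell type, pooling its nuclei, and merged overlapping peaks. They deposited a binarized count of each peak in each nucleus (1 or 0, not scaled for depth), so more than 1 fragment in a peak counts as 1. Peaks opened only in rare cells within a cell type can be missed, which was not tested. Cluster and sample names of the nuclei were used as deposited. Deposited embeddings and single-cell RNA labels, which hold no gene values, were not used.

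Open calls were summed per gene, cluster and sample over peaks touching the gene body or 2 kb upstream (GENCODE M21), leaving out sums of under 20 nuclei. Doublets were not called. Stages were compared in each cluster with edgeR 4.0.16 (quasi-likelihood test, TMM, filterByExpr with 10 and 15 calls, Benjamini-Hochberg adjustment over all genes of the cluster, threshold 0.05), and clusters against the mean of the 12 others with the sample as block. Peaks were tested likewise. The SE was taken as the absolute log2 fold change over the root of its F value. On simulated counts for PCT, 77% of genes changed 2-fold and 97% of those changed 4-fold by stage were called, and for single peaks in PCT 8% and 51%. Between clusters, for podocytes, the shares were 90% and 97% of genes at P0, 49% and 90% in the adult, and 11% and 41% of peaks at P0. False calls were 13 of 187 for genes by stage in PCT and 3 of 62 for peaks. For podocytes they were 10 of 197 genes at P0, 7 of 146 in the adult and 2 of 54 peaks at P0. In each adult sample PCT had the most open calls of all clusters, and no other cluster was simulated by stage.

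The 36 members, the pathway and marker lists and the tests were chosen with earlier results of these data known. A marker list is not reported here. The single peaks named are, for some genes, the start-site peak open in most nuclei or the called peak with the largest log2 fold change in the leading cluster of a stage. The alternatives were other size factors, no filter, start-site peaks, peaks of 1 gene, nuclei thinned to 1000 open peaks, a minimum of 50 nuclei, DESeq2 1.42.0, a replicate block and each sample left out. The count without NP and Stroma1 was added after seeing the data. Motif letters were searched in the central 300 bases of the peaks.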

Additional observations from a re-analysis of the deposited data

Results flagged for a closer look

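The stage difference of 7 genes was called in opposite directions in different clusters, which the interaction test of stage and cluster in edgeR, on the same counts, restates. That test was passed by 34 of the 36 genes and 60.1% of all genes. The interaction F was 12.9 for Lama3, 8.98 for Itga2, 8.77 for Lamb3, 7.34 for Itga2b, 6.0 for Lamc3, 5.77 for Itga6 and 3.98 for Itgav. Lama3 and Lamb3, chains of the same laminin, both rose in PCT and both fell in DCT, and in NP Lama3 fell and Lamb3 rose. The PCT and DCT calls of both genes were each lost with a sample left out, as given above. Of the 55 peaks of Lamb3, 23 also fall in the window of another gene, so its changes cannot be assigned to Lamb3 alone. In Lama3, Itga6, Itgav, Itga2b and Lamb3 one of the called directions includes NP, where the adult nuclei had low levels of progenitor markers, and the part of that in the difference was not tested.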

How the results depend on the processing

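Of the called stage differences given with a value in the report, 3 changed sign: Itga6 in NP (0.084) and Lamc1 in CNT (0.014) with start-site peaks only, and Itgav in CNT (-0.27) with thinned nuclei. Differences that were not called are not counted here. Of the 145 stage calls, 143 were made again with DESeq2 size factors, 144 without a filter, 136 with peaks of 1 gene and 140 with the minimum of 50 nuclei. Start-site peaks only gave 56 pairs higher at P0 and 13 higher in the adult, and thinned nuclei 32 and 15, where fewer calls were left. Of the 145 calls, 93 could be tested with start-site peaks, of which 51 were made again, 5 changed sign and 1 of these, Lama5 in LOH, was called the other way. With thinned nuclei 92 could be tested and 43 were made again. DESeq2 gave 62 higher at P0 and made 97 of the 145 calls again, and the cause was not tested. Leaving out 1 sample gave 37 to 107 pairs higher at P0 and 18 to 52 higher in the adult. Between clusters, start-site peaks gave 96 pairs higher and 43 lower at P0 and 67 and 45 in the adult, against 145 and 117, and 123 and 99. Of the 262 calls at P0 they made 108 again, with 30 sign changes and 1 called the other way, and of the 222 in the adult 88, with 20 and 3. Thinned nuclei gave 78 and 28 at P0 and 52 lower in the adult. The interaction was called in 21 of 36 genes with thinned nuclei and in 21 to 33 with 1 sample left out. For single peaks, leaving out 1 sample gave 107 to 367 pairs higher at P0, 112 to 361 higher in the adult and, between adult clusters, 70 to 155 lower, against 211. At P0 the comparison of clusters could not be fitted without 1 sample, which leaves no residual degrees of freedom.

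The replicate numbers come from different animals at the 2 stages. The correlation of deviations of same-numbered samples ran from -0.02 to 0.24 over the clusters and was above 0.1 in 8 of 13. With the replicate block, 94 pairs were called towards P0 and 46 towards the adult, and 138 of the 145 calls were made again.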
